A study of Mus musculus with 6 samples.

Results

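The creatine cycle genes described here are 9 rows of a table of 46095 gene symbols, picked by symbol with earlier results of these data known. They are the creatine kinases Ckb, Ckm, Ckmt1 and Ckmt2, the enzymes of creatine synthesis Gatm and Gamt, the creatine importer Slc6a8, and the phosphatases Alpl and Phospho1. Of the 9, 6 had enough reads to be tested and 3 did not. RNA was sequenced from brown adipocytes induced in culture from the stromal vascular fraction of brown adipose tissue, the cells of a digested fat pad other than its fat cells. There were 3 libraries from U-IRX3ov mice, whose genotype name gives IRX3 overexpression, and 3 from control mice. All mice were C57BL/6 and aged 5 weeks. Cells of both genotypes were induced for 8 days, first with insulin, dexamethasone, rosiglitazone, triiodothyronine and IBMX, then with insulin, rosiglitazone and triiodothyronine alone. No source used here gives the construct, the promoter that drives it or the number of animals behind each library.

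Creatine kinases move a phosphate group between ATP and creatine, so that phosphocreatine can serve as a store and a carrier of energy. One kinase works in the cytosol of brain and many other tissues (Ckb), one in the cytosol of muscle (Ckm), and a pair sit in the space between the mitochondrial membranes (Ckmt1 in many tissues, Ckmt2 in striated muscle). In thermogenic fat of mice, a cycle of creatine phosphorylation and hydrolysis of phosphocreatine has been described that spends ATP and gives off heat. The alkaline phosphatase made from Alpl has been proposed as its hydrolase in mice and Ckb as a kinase that drives it. Phospho1 is best known as the phosphatase of phosphocholine and phosphoethanolamine in mineralising cartilage and bone, and it has been listed among candidate phosphatases of the creatine cycle.

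Library totals ran from 20094799 to 26755870 counts in U-IRX3ov and from 25371093 to 26573164 in control. CPM below are counts relative to library size, with library sizes scaled by TMM. Irx3, the gene in the genotype name, had 6.16 CPM in U-IRX3ov and 5.11 CPM in control cells, a log2 fold change of 0.27 ± 0.13 (SE) that did not pass the test (edgeR adjusted p = 0.112), and whether reads of the construct would fall under that symbol is not known. Brown adipocyte markers had a summed level of 687 to 786 CPM in U-IRX3ov and 237 to 244 CPM in control. Elovl3 made up most of the control sum, with 261 CPM in U-IRX3ov and 167 CPM in control. Ucp1 had 240 CPM in U-IRX3ov and 19.7 CPM in control. Others were low, such as Dio2 with 4.47 CPM in U-IRX3ov and 3.06 CPM in control. Whether replicate libraries stem from different animals or dishes is not stated, so the p-values measure only the spread between these 6 libraries, which may be technical.

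Of the 6 tested genes, Phospho1 was higher in U-IRX3ov cells, Ckb and Slc6a8 were lower, and Gatm, Gamt and Alpl did not pass the test. Thus 3 of 6 were called, 1 higher and 2 lower, where 41.3% of all 14757 genes tested were called, 20.2% higher and 21.1% lower. The share of these genes that was called is near that background. Their median log2 fold change was -0.20, beside -0.00473 over all genes tested, and single values ran from -0.86 for Ckb to 1.19 for Phospho1. The groups did not overlap in CPM for 4 of the 6 (Phospho1, Ckb, Slc6a8 and Gatm), beside 50.8% of all genes tested. In these bulk samples, fewer cells of a type and less RNA per cell cannot be told apart.

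**Figure D1:**
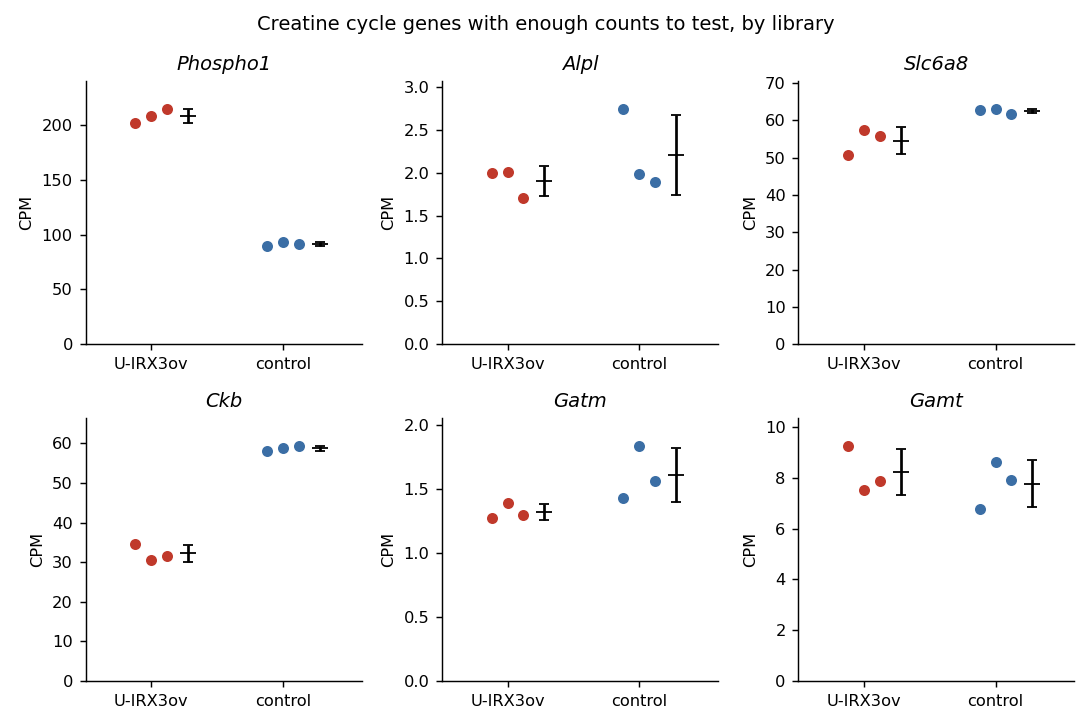
CPM (vertical axis, from 0) of the 6 tested creatine cycle genes in each library of U-IRX3ov (left, red) and control (right, blue), with the mean ± SD of each group (n = 3) as a black bar. Phospho1 lies at 202 to 215 CPM in U-IRX3ov and at 90.0 to 93.0 CPM in control, Ckb and Slc6a8 lie lower in every U-IRX3ov library than in any control library, and the groups overlap for Alpl and Gamt.

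Phospho1 had the most counts of the 9 genes and the largest change of the 6 tested. Its counts were 5257, 4060 and 4154 in U-IRX3ov libraries 1, 2 and 3, and 2466, 2435 and 2472 in control libraries 1, 2 and 3. In CPM this was 202, 208 and 215 in U-IRX3ov, against 90.0, 93.0 and 91.7 in control. All 3 U-IRX3ov libraries were more than 100 CPM above every control library. The mean was 208 ± 6.20 CPM in U-IRX3ov and 91.6 ± 1.49 CPM in control (SD, n = 3 each), a fold of 2.27 with a 95% interval of 2.15 to 2.40 (log2 fold change 1.19 ± 0.04 SE, edgeR adjusted p = 1.22e-18). Of the 14757 genes tested, 192 had a larger log2 fold change and 7 had a smaller p. The SD between U-IRX3ov libraries was 2.98% of the mean, where counting alone would give 1.49%, and in control it was 1.63%, where counting alone would give 2.02%.

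The rise of Phospho1 was seen in a stretch of chromosome 11 where its annotated exons touch those of other genes. In mm10 (GENCODE annotation of GRCm38) the gene lies on the plus strand at chr11:95824499-95832140. Exons of Zfp652, a zinc finger gene on the same strand, and of Abi3, a gene on the other strand, overlap its exons. Zfp652 had 533, 432 and 353 counts in U-IRX3ov libraries 1 to 3, against 506, 497 and 607 in control libraries 1 to 3 (log2 fold change 0.02 ± 0.09, edgeR adjusted p = 0.859). Abi3 had 0.780 CPM in U-IRX3ov and 0.792 CPM in control cells (-0.02 ± 0.38, edgeR adjusted p = 0.975). Neither partner was called, and each was at a lower level than Phospho1 in both groups. How the counting treated reads in the shared exons is not given, so the level of Phospho1 is uncertain to that extent. The nearest tested coding genes on each side that do not overlap Phospho1 were Phb, 143726 bases away, and Gngt2, 5076 bases away. Phb was higher (0.43 ± 0.05, edgeR adjusted p = 1.72e-08) and Gngt2 was lower (-0.74 ± 0.22, edgeR adjusted p = 0.00661).

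Alpl, the tissue-nonspecific alkaline phosphatase, had few counts in these cells. Its counts were 52, 39 and 33 in U-IRX3ov libraries 1 to 3, against 75, 52 and 51 in control libraries 1 to 3. In CPM this was 2.0, 2.0 and 1.70 in U-IRX3ov, against 2.74, 1.99 and 1.89 in control. Control library 1 stood above all others, and the other control libraries lay among those of U-IRX3ov. The fold was 0.864 with a 95% interval of 0.621 to 1.202 (log2 fold change -0.21 ± 0.23, edgeR adjusted p = 0.502). Without control library 1 the log2 fold change was -0.02 (edgeR adjusted p = 0.954). Its 3 relatives in the mouse, Alpi, Alppl2 and Akp3, had 0 counts in each of the 6 libraries, where a count of 0 allows up to 3 counts a library, or at most 0.155 CPM. Per exon length, Phospho1 stood 201, 207 and 250 times above Alpl in U-IRX3ov libraries 1 to 3 and 65.4, 93.1 and 96.3 times above it in control libraries 1 to 3. The groups did not overlap in this ratio. Phospho1 was called higher and Alpl was not called, so that gap restates the rise of Phospho1 and adds nothing on Alpl. The ratio also rests on the few reads of Alpl, 33 to 75 counts a library. How often ratios to other genes do not overlap was not tested.

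Ckb, the brain-type kinase of the cytosol, moved the other way from Phospho1. Its counts were 901, 594 and 609 in U-IRX3ov libraries 1 to 3, against 1589, 1539 and 1600 in control libraries 1 to 3. In CPM this was 34.6, 30.5 and 31.5 in U-IRX3ov, against 58.0, 58.8 and 59.4 in control. The highest U-IRX3ov library was well under the lowest control library. The mean was 32.2 ± 2.18 CPM in U-IRX3ov and 58.7 ± 0.679 CPM in control (SD, n = 3 each), a fold of 0.550 with a 95% interval of 0.506 to 0.598 (log2 fold change -0.86 ± 0.06, edgeR adjusted p = 1.74e-12). Thus Ckb mRNA was 45.0% lower in U-IRX3ov. Of all genes tested, 684 had a lower log2 fold change. U-IRX3ov library 1 was the highest of its group, and the SD within that group was 6.76% of the mean, where counting alone would give 3.78%.

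Reads of Ckb could also come from processed copies. The annotation holds a pair of pseudogenes named for it, of which Ckb-ps1 had 0 counts in every library and Ckb-ps2 had 2 counts in control library 2 and 0 in the others. Whether reads that match several places were dropped or shared is not given. Ckb lies on the minus strand at chr12:111669361-111672338 of mm10, and no other annotated gene overlaps it. Its nearest tested coding neighbours were not called, with log2 fold changes of 0.10 ± 0.04 for Mark3 (edgeR adjusted p = 0.0562) and -0.19 ± 0.11 for Trmt61a (edgeR adjusted p = 0.161).

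The 300 bases around the annotated starts of Phospho1 and Ckb are shown because these 2 genes had the largest rise and the largest fall among the 6 tested. They are the RefSeq sequences of GRCm38.p6, read 5′ to 3′ on the strand of the gene, with 250 bases before the start and 50 from it on. They span chr11:95824250-95824549 (plus strand) for Phospho1 and chr12:111672289-111672588 (minus strand) for Ckb. Capitals mark each match to TATAAA and to CCAAT on either strand, a pair of core promoter motifs that was chosen after the sequences had been seen.
Phospho1: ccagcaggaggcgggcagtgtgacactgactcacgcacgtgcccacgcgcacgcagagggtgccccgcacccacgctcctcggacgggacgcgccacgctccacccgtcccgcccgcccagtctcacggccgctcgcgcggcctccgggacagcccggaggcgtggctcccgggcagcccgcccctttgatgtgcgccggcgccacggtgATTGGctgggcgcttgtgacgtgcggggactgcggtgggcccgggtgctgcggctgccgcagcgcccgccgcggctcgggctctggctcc
Ckb: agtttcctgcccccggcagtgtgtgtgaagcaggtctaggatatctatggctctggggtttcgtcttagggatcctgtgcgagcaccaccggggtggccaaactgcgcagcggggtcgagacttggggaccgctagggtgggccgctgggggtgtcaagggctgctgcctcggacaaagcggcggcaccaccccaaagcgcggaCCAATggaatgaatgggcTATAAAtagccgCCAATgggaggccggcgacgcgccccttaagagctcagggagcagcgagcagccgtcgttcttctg

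The windows differ in base composition. That of Phospho1 is 77.0% G and C with 42 CpG sites, above 97.6% of the 32851 RefSeq promoter windows of this length in G and C. That of Ckb is 63.0% G and C with 22 CpG sites, beside medians of 52.7% and 7 over all windows. TATAAA begins 28 bases before the annotated start of Ckb and is not in the window of Phospho1, and 13.6% of all windows hold it. CCAAT begins 46 and 16 bases before the start of Ckb, and its reverse complement begins 40 bases before the start of Phospho1, where 37.4% of all windows hold it on either strand. The oestrogen-related receptor motif TCAAGGTCA (in 0.423% of windows), the nuclear receptor core motif AGGTCA (16.3%), which lies within it, the Iroquois-type motif ACANNTGT (7.38%) and the cAMP response element TGACGTCA (1.79%) had no match in either window on either strand. These matches are letters in a window, not binding.

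The other kinases were at or near 0 counts. Ckm, the muscle kinase of the cytosol, had 2, 0 and 1 counts in U-IRX3ov libraries 1 to 3 and 0 in each control library. Ckmt1, the ubiquitous mitochondrial kinase, had 3, 0 and 1 counts in U-IRX3ov libraries 1 to 3, against 4, 0 and 0 in control libraries 1 to 3. Ckmt2, the sarcomeric mitochondrial kinase, had 0 counts in each U-IRX3ov library, against 0, 3 and 3 in control libraries 1 to 3. No library held more than 4 counts of any of them, so none passed the filter on low counts, and no fold is given. A count of 0 in a library allows up to 3 counts, which is 0.115 to 0.155 CPM in U-IRX3ov and 0.110 to 0.115 CPM in control. Annotated genes on the other strand overlap exons of each of them, and of these A930016O22Rik (at Ckm) and Strc (at Ckmt1) had 0 counts in every library.

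Ckb therefore supplied nearly all creatine kinase reads in both genotypes. Its share of the 4 kinases, per exon length, was 99.4%, 100% and 99.6% in U-IRX3ov libraries 1 to 3, against 99.7%, 99.6% and 99.6% in control libraries 1 to 3. The mitochondrial pair held 3 of 906, 0 of 594 and 1 of 611 kinase counts in U-IRX3ov libraries 1 to 3, against 4 of 1593, 3 of 1542 and 3 of 1603 in control libraries 1 to 3. The upper bound of the 95% exact binomial interval for that share of counts was at most 0.965% in U-IRX3ov and at most 0.642% in control, which covers counting error only. Per exon length the mitochondrial share was 0.191% ± 0.192 in U-IRX3ov and 0.344% ± 0.0468 in control (SD, n = 3 each), a difference of -0.153 percentage points (two-sided exact permutation p = 0.4, where 3 against 3 libraries cannot go below 0.1). From counts not divided by exon length the difference was -0.046 percentage points.

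**Figure D2:**
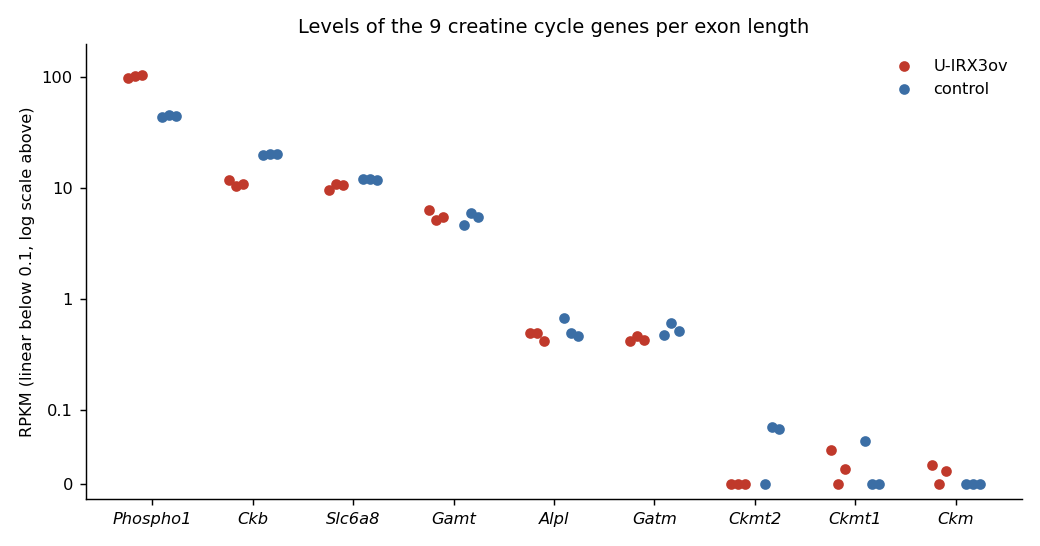
RPKM (vertical axis, linear below 0.1 and log above) of all 9 creatine cycle genes in each library of U-IRX3ov (red, left of each pair) and control (blue), ordered by the mean in control. Phospho1 is highest in both groups, Ckb, Slc6a8 and Gamt lie between 4.70 and 20.5 RPKM, Alpl and Gatm lie below 1, and Ckmt2, Ckmt1 and Ckm lie below 0.1.

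By group means, the order of levels per exon length was the same in both groups for the 6 tested genes. It did not hold in every single library. In RPKM (CPM per kilobase of annotated exon) Phospho1 averaged 103 ± 3.06 in U-IRX3ov and 45.1 ± 0.734 in control (SD, n = 3 each), above 95.9% of tested genes with a known length over all 6 libraries. Ckb averaged 11.1 ± 0.752 RPKM in U-IRX3ov and 20.3 ± 0.235 RPKM in control. Slc6a8 averaged 10.5 ± 0.676 RPKM in U-IRX3ov and 11.99 ± 0.124 RPKM in control. In control every library had more Ckb than any had Slc6a8, whereas in U-IRX3ov the ranges of the 2 genes overlapped. Gamt followed with 5.70 ± 0.630 RPKM in U-IRX3ov and 5.39 ± 0.642 RPKM in control. Alpl (0.472 ± 0.0424 RPKM in U-IRX3ov and 0.547 ± 0.115 RPKM in control) and Gatm (0.438 ± 0.0206 RPKM in U-IRX3ov and 0.535 ± 0.0695 RPKM in control) overlapped in both groups. The ratio of Phospho1 to Ckb, both in RPKM, was 8.32, 9.75 and 9.73 in U-IRX3ov libraries 1 to 3, against 2.21, 2.26 and 2.20 in control libraries 1 to 3.

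Slc6a8, the plasma membrane transporter that brings creatine into the cell, was slightly lower in U-IRX3ov. Its counts were 1316, 1118 and 1078 in U-IRX3ov libraries 1 to 3, against 1719, 1648 and 1664 in control libraries 1 to 3. In CPM this was 50.6, 57.4 and 55.7 in U-IRX3ov, against 62.8, 63.0 and 61.8 in control. The groups did not overlap, and U-IRX3ov library 1 was the lowest of all. The mean was 54.6 ± 3.52 CPM in U-IRX3ov and 62.5 ± 0.647 CPM in control (SD, n = 3 each), 12.9% lower, with a fold of 0.871 and a 95% interval of 0.808 to 0.940 (log2 fold change -0.20 ± 0.05, edgeR adjusted p = 0.00331). The call was lost without U-IRX3ov library 1, in a fit with 1 library fewer, where the log2 fold change was -0.14 and the edgeR adjusted p 0.0503. Slc6a8 lies on the plus strand at chrX:73673150-73682502 of mm10 with no overlapping gene. On that chromosome its nearest tested coding neighbour Bcap31 was higher (0.19 ± 0.03, edgeR adjusted p = 6.48e-05) and Pnck, on the other side, was lower (-0.67 ± 0.27, edgeR adjusted p = 0.0497).

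Synthesis of creatine takes 2 steps, and neither enzyme passed the test. Gatm joins arginine and glycine to guanidinoacetate in mitochondria. It had 33, 27 and 25 counts in U-IRX3ov libraries 1 to 3, against 39, 48 and 42 in control libraries 1 to 3. In CPM this was 1.27, 1.39 and 1.29 in U-IRX3ov, against 1.42, 1.83 and 1.56 in control. All 3 U-IRX3ov libraries lay below all 3 control libraries, by a narrow margin. The fold was 0.819 with a 95% interval of 0.556 to 1.21 (log2 fold change -0.29 ± 0.27, edgeR adjusted p = 0.427). The SD between libraries was 4.71% of the mean in U-IRX3ov, where counting alone would give 18.8%, and 13.0% in control, where counting alone would give 15.2%. The libraries thus lay closer together than counting error, and the lack of overlap carries little weight.

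Gamt adds a methyl group from S-adenosylmethionine to guanidinoacetate, which gives creatine. It had 241, 147 and 153 counts in U-IRX3ov libraries 1 to 3, against 186, 226 and 213 in control libraries 1 to 3. In CPM this was 9.27, 7.54 and 7.90 in U-IRX3ov, against 6.79, 8.63 and 7.90 in control. The groups overlapped, with the highest value in U-IRX3ov library 1 and the lowest in control library 1. The fold was 1.07 with a 95% interval of 0.892 to 1.27 (log2 fold change 0.09 ± 0.12, edgeR adjusted p = 0.593), and without U-IRX3ov library 1 the log2 fold change was -0.00819. Per exon length, Gamt stood 15.2, 11.3 and 12.7 times above Gatm in U-IRX3ov libraries 1 to 3 and 9.91, 9.79 and 10.5 times above it in control libraries 1 to 3, without overlap. Neither gene was called, and Gatm had only 25 to 48 counts a library, so this ratio rests on few reads. How often such ratios do not overlap among other genes was not tested. Slc6a8 stood 23.0, 23.9 and 24.8 times above Gatm in U-IRX3ov libraries 1 to 3 and 25.4, 19.8 and 22.8 times above it in control libraries 1 to 3, so that the groups overlapped in the ratio of transport to synthesis mRNA.

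**Figure D3:**
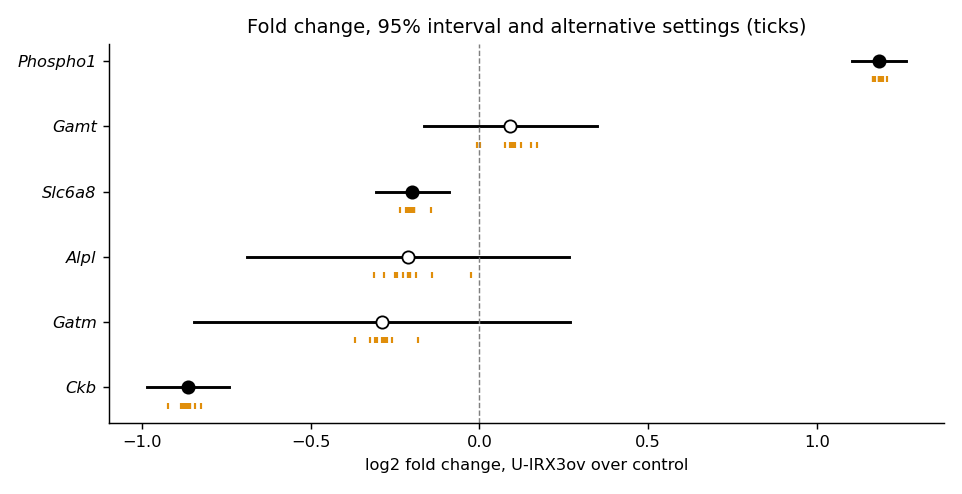
Log2 fold change of U-IRX3ov over control (horizontal axis) for the 6 tested creatine cycle genes, with the 95% interval as a line, filled points for genes that passed the test, and ticks below for the values under other settings and with 1 library left out. Phospho1 stays between 1.17 and 1.21, Ckb between -0.92 and -0.82 and Slc6a8 between -0.24 and -0.14, while the intervals of Gamt, Alpl and Gatm cross 0.

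Each tested gene was set beside the non-member genes whose levels ran most like its own over the 6 libraries, by the root mean square difference of centred log2 CPM, among 8984 genes with at least 10 CPM. For Phospho1 these were Acaa2, a thiolase of fatty acid oxidation (difference 0.0252, log2 fold change 1.17 ± 0.04), the desaturase Scd1 (0.0314, log2 fold change 1.18 ± 0.04) and the hexokinase Hk2 (0.0373, log2 fold change 1.13 ± 0.04). For Ckb they were Mylk, the myosin light chain kinase of smooth muscle (0.0197, log2 fold change -0.83 ± 0.04), and the matrix gene Olfml2b (0.0327, log2 fold change -0.87 ± 0.07). For Slc6a8 they were Gxylt1 (0.0191), Sertad2 (0.0228) and Kif5b (0.0281), with log2 fold changes from -0.20 to -0.18. Closeness in 6 libraries of 2 groups rests mostly on the difference between the groups. The closest genes to the 3 members that were not called were Lonrf1, Exosc6 and Comtd1 for Gamt (differences of 0.0212 to 0.0468), Plekhh1, Stx7 and Fbxw9 for Gatm (0.0290 to 0.0330), and Gm3226, Pbdc1 and Bloc1s3 for Alpl (0.0754 to 0.0777). These 3 members lay under the 10 CPM asked of the candidates, and the patterns of Gatm and Alpl rest on few counts. Plekhh1 and Stx7 were called lower (edgeR adjusted p = 0.00810 and 8.29e-04), while Gatm was not called.

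Genes around the cycle were taken from 6 lists, with medians to be read beside -0.00473 for all genes tested and counts beside the 20.2% called higher and 21.1% called lower. Of the 14 tested genes for exchange of adenine nucleotides and phosphate across mitochondrial membranes and for adenylate kinases, which hand phosphate between ATP and AMP, 8 rose and 3 fell (median log2 fold change 0.19). Ak4, an adenylate kinase of the mitochondrial matrix, rose to 103 CPM in U-IRX3ov, against 30.9 CPM in control (1.74 ± 0.07, edgeR adjusted p = 4.42e-13). Ak1, the adenylate kinase of the cytosol, fell to 53.4 CPM in U-IRX3ov, against 84.3 CPM in control (-0.65 ± 0.05, edgeR adjusted p = 5.93e-11). The ADP/ATP carrier Slc25a5 rose by 0.42 ± 0.04 (edgeR adjusted p = 2.79e-10), and Ak3 of the mitochondrial matrix rose by 0.42 ± 0.04 (edgeR adjusted p = 7.30e-10).

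Supply of the precursors had no single direction. Among 14 tested genes of arginine and glycine supply 5 rose and 5 fell (median 0.02). The argininosuccinate synthase Ass1 (-1.07 ± 0.08, edgeR adjusted p = 5.11e-12), the arginine transporter Slc7a2 (-1.17 ± 0.09, edgeR adjusted p = 7.22e-12) and the ornithine aminotransferase Oat (-0.34 ± 0.04, edgeR adjusted p = 4.98e-08) fell. Dld, the dehydrogenase shared by glycine cleavage and several mitochondrial complexes, rose (0.58 ± 0.03, edgeR adjusted p = 1.26e-13). Among 12 tested genes of methyl donor supply 3 rose and 3 fell (median 0.03), with Ahcyl2, a relative of the hydrolase that clears S-adenosylhomocysteine (0.28 ± 0.04, edgeR adjusted p = 6.32e-07), and Mat2b, a subunit of the S-adenosylmethionine synthetase (0.21 ± 0.04, edgeR adjusted p = 1.94e-04), among those that rose. Nnmt, which spends methyl groups on nicotinamide (-0.22 ± 0.04, edgeR adjusted p = 3.83e-05), and the methionine synthase Mtr (-0.28 ± 0.10, edgeR adjusted p = 0.0210) fell.

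Among 11 tested genes of phosphate and pyrophosphate handling, the setting in which Alpl and Phospho1 are known from bone, 4 rose and 3 fell (median 0.03). Ank, a membrane protein of pyrophosphate export (0.47 ± 0.05, edgeR adjusted p = 3.39e-09), the mitochondrial pyrophosphatase Ppa2 (0.41 ± 0.05, edgeR adjusted p = 1.95e-07) and Phospho2, the paralogue of Phospho1 (0.24 ± 0.05, edgeR adjusted p = 1.39e-04), rose. Enpp1, which makes pyrophosphate outside the cell, fell (-0.69 ± 0.13, edgeR adjusted p = 5.88e-05). Of 5 tested SLC6 transporters other than Slc6a8, 2 rose and 0 fell (median 0.19), namely Slc6a13 (0.52 ± 0.11, edgeR adjusted p = 3.00e-04) and the taurine transporter Slc6a6 (0.19 ± 0.04, edgeR adjusted p = 3.15e-04). Of 10 tested regulators of energy balance 6 rose and 1 fell (median 0.15). That list holds subunits of the AMP-activated kinase, its activator Stk11, the coactivator Ppargc1a itself and oestrogen-related receptors. The coactivator Ppargc1a (1.17 ± 0.08, edgeR adjusted p = 9.18e-12), the oestrogen-related receptors Esrra (0.44 ± 0.04, edgeR adjusted p = 2.06e-09) and Esrrg (1.92 ± 0.37, at 1.57 CPM in U-IRX3ov and 0.412 CPM in control, edgeR adjusted p = 1.33e-04), and the kinase subunit Prkaa2 (0.52 ± 0.06, edgeR adjusted p = 9.98e-08) were among those that rose.

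**Figure D4:**
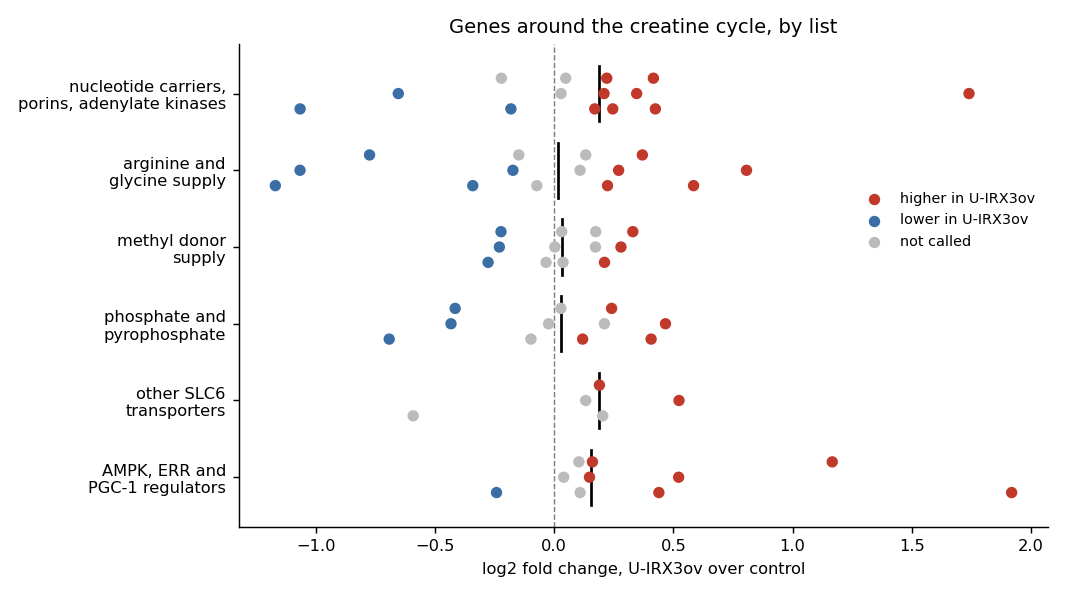
Log2 fold change of U-IRX3ov over control (horizontal axis) for the tested genes of 6 lists around the creatine cycle, 1 point per gene, with the list median as a black line. Red points passed the test as higher in U-IRX3ov, blue points as lower and grey points did not pass, and the medians lie between 0.02 and 0.19.

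Markers of several cell types moved in the same libraries as Phospho1 and Ckb, and their counts are likewise to be read beside the 20.2% of all genes tested called higher and the 21.1% called lower. The same holds for the counts of muscle and bone markers further on. Of general adipocyte markers 6 of 8 rose and 0 fell (median log2 fold change 0.29, summed level 31388 to 32683 CPM in U-IRX3ov and 24384 to 25175 CPM in control), and of brown adipocyte markers 8 of 8 rose (median 1.47). Preadipocyte and fibroblast markers fell in 9 of 10 (median -0.72, summed level 3972 to 4298 CPM in U-IRX3ov and 6622 to 6775 CPM in control). Among 7 tested markers of pericytes and smooth muscle 5 fell and 1 rose (median -0.68, summed level 2099 to 2334 CPM in U-IRX3ov and 3369 to 3496 CPM in control). Leukocyte markers fell in 8 of 8 tested (median -1.34, summed level 73.1 to 98.9 CPM in U-IRX3ov and 230 to 275 CPM in control), with Ms4a1 at 0 counts in every library. Endothelial markers rose in 5 of 8 and fell in 0 (median 0.66, summed level 43.5 to 49.0 CPM in U-IRX3ov and 22.6 to 26.8 CPM in control). The part of these shifts in the results for Phospho1, Ckb and Slc6a8 was not tested.

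Markers of the tissues in which Ckm, Ckmt2, Alpl and Phospho1 are best known, skeletal muscle and bone, were present in part. Skeletal muscle markers summed to 30.3 to 41.6 CPM in U-IRX3ov and 27.4 to 33.4 CPM in control, and of the 7 tested of 14 listed 5 rose and 1 fell (median 0.93). The myosin Myh1 rose to 3.94 CPM in U-IRX3ov, against 1.31 CPM in control (1.57 ± 0.25, edgeR adjusted p = 1.05e-05). Titin (Ttn) rose to 6.61 CPM in U-IRX3ov, against 3.46 CPM in control (0.93 ± 0.16, edgeR adjusted p = 2.94e-05). Tnnt3 (2.01 ± 0.46, edgeR adjusted p = 7.97e-04), Des (0.80 ± 0.17, edgeR adjusted p = 4.15e-04) and Mylpf (0.95 ± 0.31, edgeR adjusted p = 0.0147) also rose. All of them were at low levels. Tnnt3 had 1.13 CPM in U-IRX3ov and 0.272 CPM in control, from 72 and 22 counts in total. Des had 4.91 CPM in U-IRX3ov and 2.80 CPM in control, and Mylpf had 1.96 and 1.00 CPM. The actin Acta1 fell to 14.7 CPM in U-IRX3ov, against 20.1 CPM in control (-0.45 ± 0.09, edgeR adjusted p = 1.67e-04), and Myh2 was not called (-0.90 ± 0.45, edgeR adjusted p = 0.119). Of the 7 not tested, Myf5 had 0 counts in every library, and Myod1, Myog, Pax7, Actn2, Myh4 and Tnni2 had at most 18 counts in any library.

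Markers of bone-forming cells summed to 116 to 160 CPM in U-IRX3ov and 132 to 158 CPM in control, and of the 3 tested of 9 listed 2 fell and 0 rose (median -0.24). Runx2, the transcription factor of the bone lineage, fell to 15.4 CPM in U-IRX3ov, against 18.2 CPM in control (-0.24 ± 0.09, edgeR adjusted p = 0.0247). Bmp8a fell to 1.10 CPM in U-IRX3ov, against 2.41 CPM in control (-1.13 ± 0.28, edgeR adjusted p = 0.00167). Spp1, which made up most of the sum, had 119 CPM in U-IRX3ov and 126 CPM in control and was not called (edgeR adjusted p = 0.788). Of the 6 not tested, Ibsp had 0 counts in every library, and Sp7, Bglap, Bglap2, Dmp1 and Phex had at most 12 counts in any library. The part of muscle and bone markers in the results for the creatine cycle genes was not tested.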

How the data were processed

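Per the submitters' processing notes, HISAT2 2.0.4 aligned the reads and mm10 was the build. No source used here names the counting program, the annotation it used or the strandedness. The authors deposited raw counts per gene symbol, not normalized, in which all 6 columns matched a library title. The members and lists were chosen with earlier results of these data known. Genes low in both groups were removed with filterByExpr, which left 14757. Counts were scaled by TMM and tested with edgeR 4.0.16 in R 4.3.3 (robust quasi-likelihood F test, group as the only term, Benjamini-Hochberg over all genes tested, threshold 0.05). The SE was taken as the size of the log2 fold change over the root of F, and 95% intervals use the degrees of freedom of that test. RPKM used the exon union of GENCODE M21.

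All 9 members are named. From each list up to 4 called genes with the smallest p are named, and for each tested member the 3 genes with the closest pattern (pseudocount 0.5 CPM), of which 1 is not reported here. Neighbours, the motifs TATAAA and CCAAT, the named markers and genes at or near 0 counts were chosen after their values were seen. Of the 9 members 8 matched a RefSeq promoter. Ppargc1a and Slc6a9 are each in 2 lists. Chi-square over its degrees of freedom was 2.92 to 4.91 between replicates, so none was a library deposited again, and at least 60.1 between the groups. The edgeR script was tested on simulated data with changed genes drawn at random. It recovered 28 of 50 genes changed 1.3-fold, 33 of 49 changed 1.5-fold, 41 of 50 changed 2-fold and 49 of 50 changed 4-fold. Of 14382 unchanged genes it called 21. Small changes were thus often missed. The alternatives were other scalings and filters, DESeq2 1.42.0, limma-voom (limma 3.58.1), an adjusted p of 0.01, the replicate number as a block, and leaving out each library.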

Additional observations from a re-analysis of the deposited data

How the results depend on the processing

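Phospho1 and Ckb kept their direction and passed the test under all 14 alternatives, with log2 fold changes of 1.17 to 1.21 and of -0.92 to -0.82. Slc6a8 did so under 13 of 14, with edgeR adjusted p = 0.0503 without U-IRX3ov library 1. With each library left out in turn, 1 to 2 creatine cycle genes were called lower, and 1 was called higher each time. Gatm and Alpl kept a negative sign without passing, in 13 alternatives each, and Gamt, not called under any of its 13, turned to -0.00819 without U-IRX3ov library 1 and reached 0.17 without control library 2. The filter at 10 CPM left only Phospho1, Ckb and Slc6a8 of the 9 genes, and it left 13 genes of the marker lists called higher, beside 25. The difference in the mitochondrial share of creatine kinase signal ran from -0.250 to -0.0576 percentage points with 1 library left out, and was -0.046 from counts not divided by exon length, beside -0.153. Same-numbered libraries of the groups had correlations of deviations of 0.0222 to 0.0745, beside at most 0.0190 for other numbers. Each of the 6 correlated best with its own number, which is a weak hint from the data only. Deviations were taken from the mean of each group, so these 6 results are not independent. How often such a match arises by chance was not tested. With the replicate number as a block, the log2 fold changes were 1.19 for Phospho1, -0.87 for Ckb and -0.20 for Slc6a8, and 3014 genes were called higher and 3159 lower, beside 2978 and 3120 without it. No member's call changed with the block. Gatm, Alpl and the 3 kinases near 0 counts rest on few reads, and power at their depth was not tested.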
